A study of Mus musculus with 6 samples.

Results

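Mitotic regulators and kinetochore proteins carry a cell through chromosome condensation, spindle attachment, separation of sister chromatids and cytokinesis. The genes described here are 35 genes of that machinery, chosen by name and matched to the gene symbols of a table with 41228 entries. Kinesins were set aside, except Cenpe, a motor that works at the kinetochore. All 35 genes were found and all passed the filter on low counts. None of the 35 passed an adjusted p of 0.05 between SnoN cKO and wild type cerebella in edgeR's quasi-likelihood test, and neither did any other gene (0% of 15457 tested). DESeq2 and limma-voom called none of the 35 either. The genes lay close together in the direction of their small differences: 31 of 35 had a log2 fold change above 0, against 49% of all genes tested, and the median over the 35 was 0.09. Without 1 library, SnoN cKO 2, the median was 0.05 and 25 genes were above 0.

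SnoN, encoded by Skil, is a transcriptional regulator that binds Smad proteins and is itself a substrate of the anaphase-promoting complex, a ubiquitin ligase of mitosis. RNA was taken from the cerebellum of SnoN cKO mice, in which SnoN is conditionally knocked out, and of wild type mice, with 3 libraries of each genotype. All 6 mice were of the C57BL/6 strain and 6 days old. In each genotype the labels name 1 female and 2 males. The Cre line, the deleted exons, the cells in which deletion took place, litters and any allele that the wild type mice carry are not given in the labels used here, so p-values measure the spread between these samples. Sequencing was single-end, from a kit that does not mark strand, so reads of a gene and of a partner on the opposite strand cannot be told apart.

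During the first postnatal weeks the granule neuron precursors on the surface of the cerebellum divide rapidly, driven by sonic hedgehog from Purkinje cells, and most of the dividing cells of the tissue belong to them. In a cycling cell, Cdk1 with its cyclins starts mitosis, the kinetochore links centromeres to spindle microtubules, and the spindle checkpoint holds back the anaphase-promoting complex until every chromosome is attached. The transcripts of this machinery are made late in the cell cycle, so in whole tissue they follow the share of cells that divide. In RNA from whole cerebellum, a change in the number of dividing cells and a change in RNA per dividing cell cannot be told apart.

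The libraries held between 12662952 and 17840662 counts, and the 35 genes took between 0.357% and 0.412% of them. In 2 libraries the reads went against the labelled sex. SnoN cKO 1, labelled female, had 3421 counts of 4 Y-linked genes and 35 of Xist, and SnoN cKO 2, labelled male, had 5 and 37467. Both were SnoN cKO libraries, so the genotype groups stayed as labelled. SnoN cKO 3 stood apart with 3.73% of its counts on Gm42418, an entry that overlaps ribosomal RNA sequence, and wild type 2 with 0.689%, against at most 0.0657% in the other 4 libraries. SnoN cKO 2 had 256 counts of Ttr, the transthyretin gene of the choroid plexus, against 21051 to 50656 in the other 5. The Ensembl identifiers of the table were out of step with its symbols and fitted in 97 of 40254 entries, and in none of the 35. The counts followed the symbols: of 1485 entries named for olfactory and vomeronasal receptors, which brain tissue hardly expresses, 0 had over 100 counts. Genes are therefore given by symbol alone.

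Skil itself was measured at 76.0, 74.7 and 77.5 CPM in SnoN cKO 1, 2 and 3, against 89.5, 87.5 and 88.9 CPM in wild type 1, 2 and 3. CPM are counts scaled to 1000000 per library, with TMM factors between libraries. All 3 SnoN cKO libraries lay below all 3 wild type libraries. The means were 76.1 ± 1.39 CPM in SnoN cKO and 88.6 ± 1.003 CPM in wild type (SD, n = 3 each), a log2 fold change of -0.22 (SE 0.04). In edgeR it had an unadjusted p of 0.000379, an adjusted p of 0.637 and rank 7 among all genes by p. Counts over the whole gene would take in exons outside any deletion and any cells without Cre. Their part in the level of Skil was not tested.

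The 35 genes differed widely in abundance. To compare levels between genes, CPM were divided by the length of a principal protein-coding transcript, taken from an annotation that was not the authors'. Per kilobase, Top2a stood highest at 108 CPM in SnoN cKO and 101 CPM in wild type, followed by Ube2c at 80.8 in SnoN cKO and 78.3 in wild type, and by Mki67 at 70.1 in SnoN cKO and 65.3 in wild type. Mad2l1, with a transcript of 7557 bases, was lowest at 6.32 CPM per kilobase in SnoN cKO and 5.76 in wild type, and Sgol1 was next at 9.66 in SnoN cKO and 8.69 in wild type. The levels per kilobase spanned 17.6-fold in wild type, around a median of 22.1. The order of the 35 genes was nearly the same in both genotypes (Spearman's rho of the levels 0.996 over 35 genes, which share their libraries). The lowest count of any gene in any library was 352, for Ndc80 in wild type 1, where counting error alone gives a coefficient of variation of 5.33%. The highest was 11418, for Mki67 in SnoN cKO 3, where it gives 0.936%.

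Many genes of late cell cycle phases carry a cell cycle genes homology region (CHR) near their start, often beside CCAAT boxes. The CHR is known to be bound by MuvB complexes, which act as a repressor in resting cells and, with B-Myb and Foxm1, as an activator in dividing cells, and CCAAT boxes are bound by NF-Y. RefSeq promoter windows on GRCm38.p6, from 250 bases before to 50 bases after a gene's start, were at hand for 31 of the 35 genes. Aurkb, Ccna2, Foxm1 and Tpx2 were not matched. The following 200 bases before the start are shown 5′ to 3′ on the gene's strand. They were chosen for the highest genes (Top2a, Mki67), for the 4 genes with an unadjusted p under 0.05 whose groups did not overlap (Cdc20, Aurka, Sgol1, Cdk1) and for 2 genes near a log2 fold change of 0 (Ccnb1, Plk1). Capitals mark TTTGAA (the CHR), its variant TTTAAA and CCAAT, each on either strand.
Top2a, chr11:99024190-99024389, minus strand: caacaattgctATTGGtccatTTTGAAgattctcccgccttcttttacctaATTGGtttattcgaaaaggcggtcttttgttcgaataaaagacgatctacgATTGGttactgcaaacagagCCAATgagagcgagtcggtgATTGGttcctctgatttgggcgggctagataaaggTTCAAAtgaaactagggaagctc
Mki67, chr7:135716380-135716579, minus strand: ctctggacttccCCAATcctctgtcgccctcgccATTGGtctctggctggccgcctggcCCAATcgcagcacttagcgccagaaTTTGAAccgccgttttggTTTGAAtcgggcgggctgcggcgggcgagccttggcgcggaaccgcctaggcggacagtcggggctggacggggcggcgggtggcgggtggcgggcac
Cdc20, chr4:118437344-118437543, minus strand: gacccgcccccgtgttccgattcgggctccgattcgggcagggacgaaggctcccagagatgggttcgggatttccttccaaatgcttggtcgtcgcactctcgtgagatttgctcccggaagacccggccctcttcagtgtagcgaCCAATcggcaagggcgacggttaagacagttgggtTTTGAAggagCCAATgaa
Aurka, chr2:172370571-172370770, minus strand: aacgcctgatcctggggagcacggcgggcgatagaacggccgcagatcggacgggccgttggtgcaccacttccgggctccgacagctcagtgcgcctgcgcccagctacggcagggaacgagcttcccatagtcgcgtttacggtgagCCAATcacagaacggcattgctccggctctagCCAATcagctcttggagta
Sgol1, chr17:53689316-53689515, minus strand: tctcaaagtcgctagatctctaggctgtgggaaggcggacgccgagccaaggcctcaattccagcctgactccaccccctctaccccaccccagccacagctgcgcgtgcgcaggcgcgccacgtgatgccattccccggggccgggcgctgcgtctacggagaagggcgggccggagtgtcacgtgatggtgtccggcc
Cdk1, chr10:69352913-69353112, minus strand: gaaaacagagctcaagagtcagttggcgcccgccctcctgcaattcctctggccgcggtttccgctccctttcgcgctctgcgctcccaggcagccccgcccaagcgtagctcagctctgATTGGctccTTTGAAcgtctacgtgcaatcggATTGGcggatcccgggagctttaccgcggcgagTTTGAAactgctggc
Ccnb1, chr13:100786487-100786686, minus strand: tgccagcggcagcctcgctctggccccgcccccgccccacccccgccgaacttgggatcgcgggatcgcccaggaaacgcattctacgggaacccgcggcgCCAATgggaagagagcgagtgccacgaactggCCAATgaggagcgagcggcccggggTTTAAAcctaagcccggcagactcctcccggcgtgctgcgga
Plk1, chr7:122159235-122159434, plus strand: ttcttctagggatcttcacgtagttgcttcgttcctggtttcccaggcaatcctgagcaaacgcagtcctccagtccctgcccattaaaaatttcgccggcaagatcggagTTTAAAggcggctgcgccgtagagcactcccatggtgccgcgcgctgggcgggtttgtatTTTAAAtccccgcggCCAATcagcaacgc

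TTTGAA or its reverse complement TTCAAA was found in the window of 21 of the 31 genes (67.7%), against 20.2% of 27025 genes with a window. Within 50 bases of the start on either side, 20 of 31 genes held it (64.5%), against 5.72% of all genes. CCAAT, or ATTGG on the other strand, was found in 24 of 31 (77.4%), against 41.1% of all genes, and 2 or more copies in 18 (58.1%), against 13.3%. Windows with both TTTGAA and CCAAT numbered 19 of 31 (61.3%), against 8.97% of all genes. TTTAAA was found in 8 (25.8%), against 14.9%, and GGCGGGA, a motif of E2F type, in 8 (25.8%), against 12.7%. In Cdc20 the CHR lay at -18 to -13 from the start between CCAAT boxes at -53 to -49 and -8 to -4. In Cdk1 there were 2 CHRs, at -71 to -66 and -15 to -10, each downstream of a CCAAT box on the opposite strand. Ccnb1 held only the TTTAAA variant, at -42 to -37, with CCAAT boxes at -99 to -95 and -67 to -63. In Aurka and Plk1 the CHR lay after the start, at 33 to 38 and at 31 to 36. The 200 bases of Sgol1 held none of these motifs, but a CCAAT box lay after its start, at 3 to 7. The median log2 fold change of SnoN cKO over wild type was 0.09 for the 21 genes with the CHR, of which 18 were above 0, and 0.09 for the 10 without, of which 9 were above 0.

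Between SnoN cKO and wild type, the differences of the 35 genes were small. The median log2 fold change was 0.09, which is 6.73% higher in SnoN cKO, against -0.002 over all 15457 genes. The 4 genes below 0 were Anln, Plk1, Cenpe and Ccnb2. In edgeR, 5 genes had an unadjusted p under 0.05, all higher in SnoN cKO: Cdc20, Cdca3, Aurka, Sgol1 and Cdk1. That is 14.3% of the 35, against 7.68% of all genes in either direction and 3.21% higher in SnoN cKO. Their adjusted p was 0.637 in each case, and over the 35 it ran from 0.637 to 0.994. In 7 genes all 3 SnoN cKO libraries lay above all 3 wild type libraries (20%), namely Cdc20, Aurka, Cdk1, Sgol1, Ccna2, Nek2 and Top2a, and in 0 genes below, against 13.7% of all genes in either direction and 6.95% higher in SnoN cKO. With libraries scaled by their totals alone, 0 of the 35 were separated, while 30 of 35 were still above 0. In edgeR 0 of them then had an unadjusted p under 0.05, against 1124 of all 15457 genes. The 95% intervals reached at most from -0.25 to 0.30 on the log2 scale, or 0.842-fold to 1.23-fold, so a larger difference lay outside the interval of each gene. The SE was 0.04 to 0.09.

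**Figure D1:**
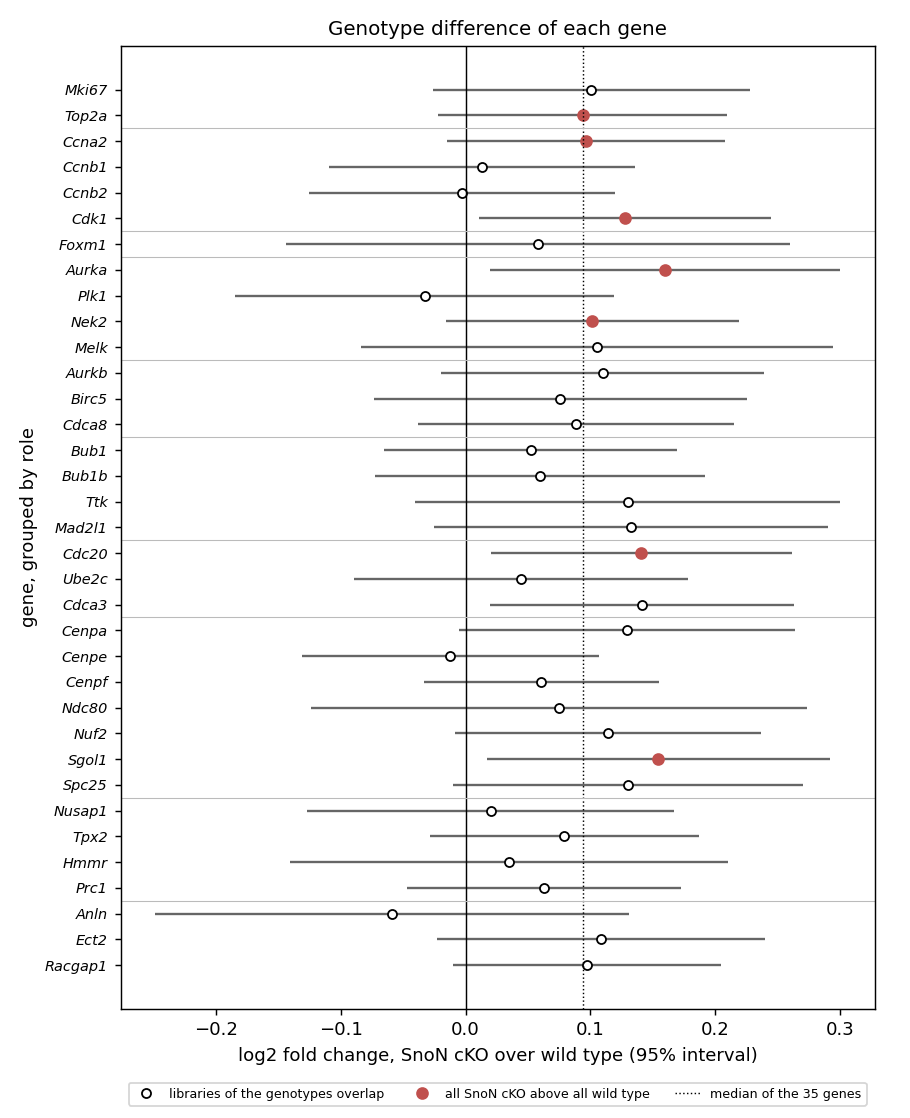
Each row is 1 of the 35 genes, grouped by role. The x axis is the log2 fold change of SnoN cKO over wild type, points are edgeR estimates and bars are 95% intervals. Most points lie right of 0, and 30 of the 35 intervals span 0.

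Mki67, whose protein coats mitotic chromosomes and marks cycling cells, was the most abundant in CPM. It had 693, 751 and 669.7 CPM in SnoN cKO 1, 2 and 3, against 632, 642 and 697 CPM in wild type 1, 2 and 3. The groups overlapped, since wild type 3 stood above SnoN cKO 1 and 3. The means were 705 ± 41.9 CPM in SnoN cKO and 657 ± 35.2 CPM in wild type, with a log2 fold change of 0.10 (SE 0.06, edgeR adjusted p = 0.675). Top2a, the topoisomerase that untangles sister chromatids, had 546, 599 and 549 CPM in SnoN cKO, against 539, 506 and 542 CPM in wild type. These groups did not overlap, though SnoN cKO 1 and wild type 3 were close, and SnoN cKO 2 was far above the rest. Its log2 fold change was 0.09 (SE 0.05, edgeR adjusted p = 0.663).

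Cdk1, the kinase that starts mitosis, had 78.4, 86.2 and 77.5 CPM in SnoN cKO, against 74.7, 74.7 and 72.1 CPM in wild type. Every SnoN cKO library was higher than every wild type library, and SnoN cKO 2 was the highest. The means were 80.7 ± 4.80 CPM in SnoN cKO and 73.8 ± 1.52 CPM in wild type, a log2 fold change of 0.13 (SE 0.05, edgeR unadjusted p = 0.0352, adjusted p = 0.637). Ccna2, the A-type cyclin that acts before the B-type cyclins, had 169.6, 187 and 169.3 CPM in SnoN cKO, against 159.9, 164 and 168.5 CPM in wild type. The groups were separated by less than 1 CPM, between SnoN cKO 3 and wild type 3. Its log2 fold change was 0.10 (SE 0.05, edgeR adjusted p = 0.656). The B-type cyclins, which activate Cdk1 at mitotic entry, had estimates close to 0. Ccnb1 had 33.8, 34.9 and 32.5 CPM in SnoN cKO, against 32.5, 33.3 and 34.5 CPM in wild type, with a log2 fold change of 0.01 (95% interval -0.11 to 0.14). The estimate for Ccnb2 was -0.002 (95% interval -0.13 to 0.12, edgeR adjusted p = 0.994), from 46.5 to 51.6 CPM in SnoN cKO and 49.1 to 50.3 CPM in wild type. Per kilobase, Ccnb1 stood at 0.393 to 0.446 of the level of Ccnb2 in SnoN cKO libraries and at 0.399 to 0.422 in wild type libraries.

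The ubiquitin genes had the highest median among the roles with more than 1 gene, 0.14. Cdc20, which activates the anaphase-promoting complex in metaphase, had 83.7, 88.7 and 79.8 CPM in SnoN cKO, against 72.8, 76.7 and 79.2 CPM in wild type. The groups were separated narrowly, between SnoN cKO 3 and wild type 3. Its means were 84.1 ± 4.46 CPM in SnoN cKO and 76.2 ± 3.20 CPM in wild type, a log2 fold change of 0.14 (SE 0.05, edgeR unadjusted p = 0.0265, adjusted p = 0.637). Cdca3, a trigger of mitotic entry that works with an SCF ubiquitin ligase, had 66.2, 72.3 and 73.1 CPM in SnoN cKO, against 67.0, 61.8 and 63.3 CPM in wild type. Here the groups overlapped, because wild type 1 was above SnoN cKO 1. The log2 fold change was 0.14 (SE 0.05, edgeR unadjusted p = 0.0274, adjusted p = 0.637). Ube2c, the conjugating enzyme that starts ubiquitin chains for the complex, had a log2 fold change of 0.04 (SE 0.06), with 73.3 to 81.7 CPM in SnoN cKO and 72.4 to 81.2 CPM in wild type. Exons of Ube2c and Tnnc2 overlap on opposite strands by 592 bases, so some of its reads may be of the other gene, and 53 bases of Cdc20 overlap Elovl1 in the same way. In all, 8 of the 35 genes have such overlaps, and the others are Ccna2, Plk1, Nusap1, Nek2, Prc1 and, with neighbours on its own strand, Foxm1.

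The 4 spindle checkpoint genes all had log2 fold changes above 0, and all overlapped between genotypes. Ttk, the kinase that starts checkpoint signalling, and Mad2l1, which binds and restrains Cdc20, each had a log2 fold change of 0.13, with SEs of 0.08 and 0.07. Ttk ran from 36.4 to 39.3 CPM in SnoN cKO and from 31.6 to 38.7 CPM in wild type. Bub1 and Bub1b, whose proteins assemble on unattached kinetochores, had estimates of 0.05 (SE 0.05) and 0.06 (SE 0.06). Per kilobase, Bub1 stood at 0.530 to 0.575 of the level of Bub1b in SnoN cKO libraries and at 0.545 to 0.569 in wild type libraries.

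Among the mitotic kinases, Aurka had the largest estimate of all 35 genes. Aurka, which matures centrosomes and is activated on the spindle by Tpx2, had 42.8, 42.0 and 37.1 CPM in SnoN cKO, against 36.8, 36.6 and 35.5 CPM in wild type. SnoN cKO 1 and 2 were well above the wild type libraries, and SnoN cKO 3 was just above them. The means were 40.6 ± 3.05 CPM in SnoN cKO and 36.3 ± 0.711 CPM in wild type, a log2 fold change of 0.16 (SE 0.06, edgeR unadjusted p = 0.0293, adjusted p = 0.637). Nek2, a kinase of centrosome separation, had 54.0, 54.5 and 53.8 CPM in SnoN cKO, against 51.3, 47.6 and 52.5 CPM in wild type. Its SnoN cKO libraries had the smallest coefficient of variation of the 35 genes, 0.734%, and all were above wild type. Counting error alone gives 3.90% at its lowest count, 656 in wild type 2, so 0.734% is no measure of the gene's real spread. The log2 fold change was 0.10 (SE 0.05, edgeR unadjusted p = 0.0831). Plk1, which acts at centrosomes, kinetochores and the midbody, had a log2 fold change of -0.03 (SE 0.07), with 49.0, 47.0 and 46.8 CPM in SnoN cKO against 45.3, 47.0 and 53.8 CPM in wild type. Wild type 3 was the highest library for Plk1. The estimate for Melk was 0.11 (SE 0.08), and it was highest in SnoN cKO 2, at 56.8 CPM.

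The chromosomal passenger complex corrects faulty attachments at the centromere and later acts at the cleavage site. Its kinase Aurkb had 58.0, 62.7 and 58.1 CPM in SnoN cKO, against 54.3, 52.7 and 58.8 CPM in wild type, a log2 fold change of 0.11 (SE 0.06). Its targeting subunits Birc5, also called survivin, and Cdca8, also called borealin, had estimates of 0.08 (SE 0.07) and 0.09 (SE 0.06). In all 3 genes SnoN cKO 2 was the highest library, and in all 3 the groups overlapped.

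**Figure D2:**
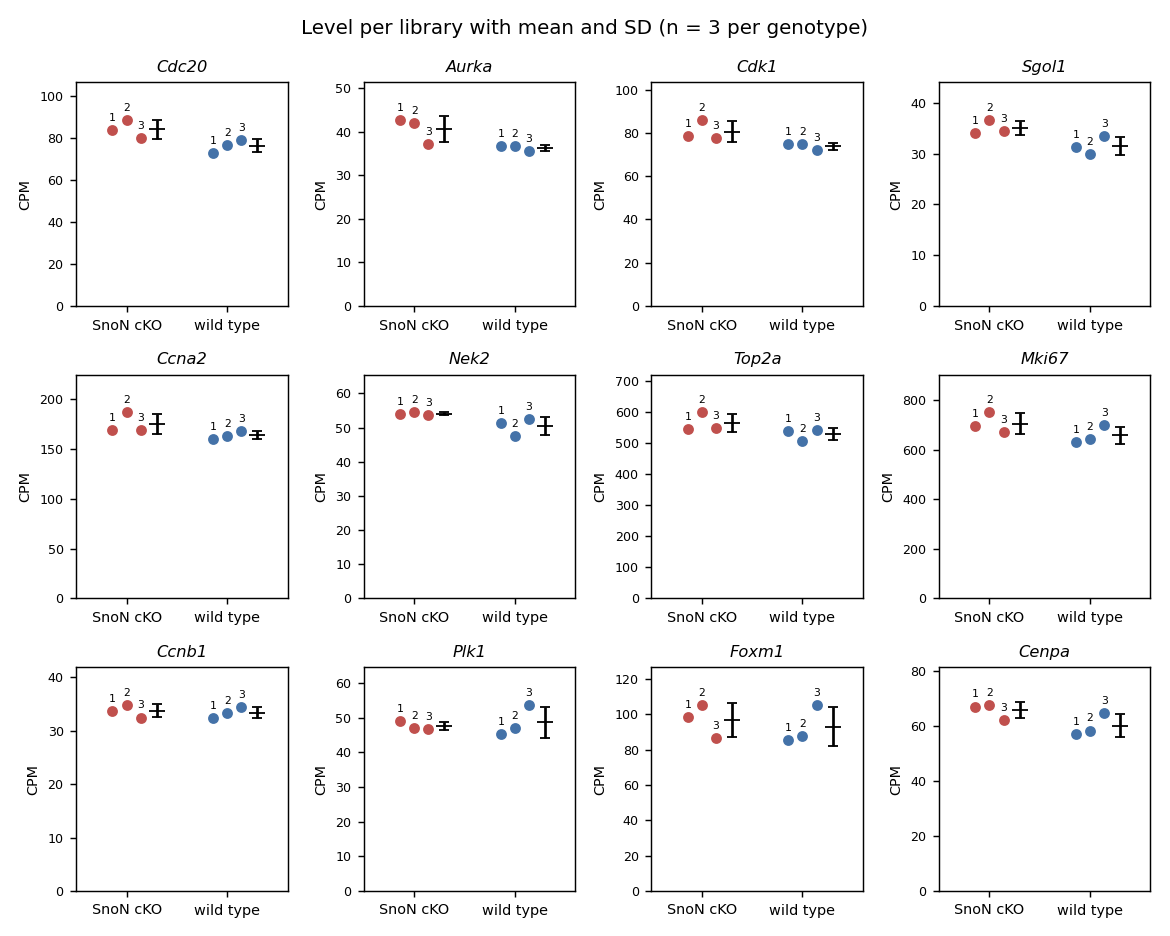
Each panel is 1 gene, with CPM on the y axis from 0. Points are libraries, with SnoN cKO left of wild type, and the bar and whisker are the mean and SD of 3 libraries. Cdc20, Aurka, Cdk1, Sgol1, Ccna2, Nek2 and Top2a do not overlap, by margins that are small beside their levels.

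Of the 7 centromere and kinetochore genes, 6 were above 0 and Cenpe, the kinetochore motor that brings chromosomes to the middle of the spindle, was at -0.01 (95% interval -0.13 to 0.11). Sgol1, the shugoshin that guards cohesin at centromeres, had 34.1, 36.7 and 34.4 CPM in SnoN cKO, against 31.2, 29.9 and 33.4 CPM in wild type. The groups did not overlap. The means were 35.04 ± 1.43 CPM in SnoN cKO and 31.5 ± 1.79 CPM in wild type, a log2 fold change of 0.15 (SE 0.06, edgeR unadjusted p = 0.0313, adjusted p = 0.637). Cenpa, the histone H3 variant that marks centromeres, had 67.0, 67.7 and 62.3 CPM in SnoN cKO, against 57.0, 58.3 and 64.8 CPM in wild type. Wild type 3 was above SnoN cKO 3, so the groups overlapped. Its log2 fold change was 0.13 (SE 0.06, edgeR unadjusted p = 0.0577, adjusted p = 0.654).

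Ndc80, Nuf2 and Spc25 encode subunits of the Ndc80 complex, which grips microtubules. The estimate was 0.13 (SE 0.06) for Spc25 and 0.11 (SE 0.05) for Nuf2, each with a single wild type library, wild type 1, above their lowest SnoN cKO library. Ndc80 had a log2 fold change of 0.07 (SE 0.09), with 28.9, 34.8 and 28.6 CPM in SnoN cKO against 27.5, 28.4 and 31.6 CPM in wild type. Per kilobase the subunits were not equal: Nuf2 stood at 1.54 to 1.79 times Ndc80 in SnoN cKO libraries and at 1.46 to 1.82 times in wild type libraries, and Spc25 at 2.88 to 3.26 times in SnoN cKO libraries and 2.67 to 3.18 times in wild type libraries. Cenpf, a large protein of the outer kinetochore, had a log2 fold change of 0.06 (SE 0.04), with 254 to 260.1 CPM in SnoN cKO and 236 to 255 CPM in wild type.

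The spindle genes had small estimates. Tpx2, which nucleates microtubules near chromosomes, had an estimate of 0.08 (SE 0.05) and Prc1, which bundles the central spindle, one of 0.06 (SE 0.05). Hmmr and Nusap1, which bind and bundle spindle microtubules, had estimates of 0.04 (SE 0.08) and 0.02 (SE 0.07). Foxm1, the transcription factor that activates many of these genes, had 98.3, 105 and 86.6 CPM in SnoN cKO, against 85.5, 87.7 and 106 CPM in wild type. The groups overlapped over most of their range, and wild type 3 was the highest library. Its log2 fold change was 0.06 (95% interval -0.14 to 0.26, edgeR adjusted p = 0.875).

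Of the cytokinesis genes, Racgap1 and Ect2, which together activate RhoA at the cell's equator, had estimates of 0.10 (SE 0.05) and 0.11 (SE 0.06). Racgap1 had 156, 167 and 157 CPM in SnoN cKO, against 145, 147 and 156.5 CPM in wild type, so wild type 3 lay above SnoN cKO 1. Anln, the anillin of the contractile ring, had the lowest estimate of the 35 genes, -0.06 (95% interval -0.25 to 0.13). It had 62.4, 64.0 and 49.7 CPM in SnoN cKO, against 60.5, 60.2 and 62.4 CPM in wild type. SnoN cKO 3 was the low library, and without it the estimate for Anln was 0.06.

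The libraries of a genotype were not alike, and the 35 genes moved with them. SnoN cKO 2 was the highest of all 6 libraries in 29 of 35 genes (82.9%), against 22.4% of all genes tested, and it stood above wild type 1 and wild type 2 in all 35. Wild type 1 or 2 was the lowest library in 27 of 35 (77.1%), against 32.2% of all genes. Wild type 3 was the highest wild type library in 28 genes, and it stood above both SnoN cKO 1 and SnoN cKO 3 in 16. Among the 35, only Plk1 and Foxm1 were highest of all 6 in wild type 3. The median coefficient of variation of the 35 genes was 5.48% in SnoN cKO and 4.19% in wild type, against 4.37% in SnoN cKO and 3.95% in wild type for the 7645 genes at least as abundant as the lowest of the 35. Without SnoN cKO 2, 25 of 35 genes were above 0 and the median log2 fold change was 0.05. In edgeR 0 of the 35 then had an unadjusted p under 0.05, against 740 of all 15568 genes. Without wild type 3, 34 were above 0 and the median was 0.12. In that fit 9 of the 35 had an unadjusted p under 0.05, against 1391 of all 15788 genes. No adjusted p passed in either case.

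**Figure D3:**
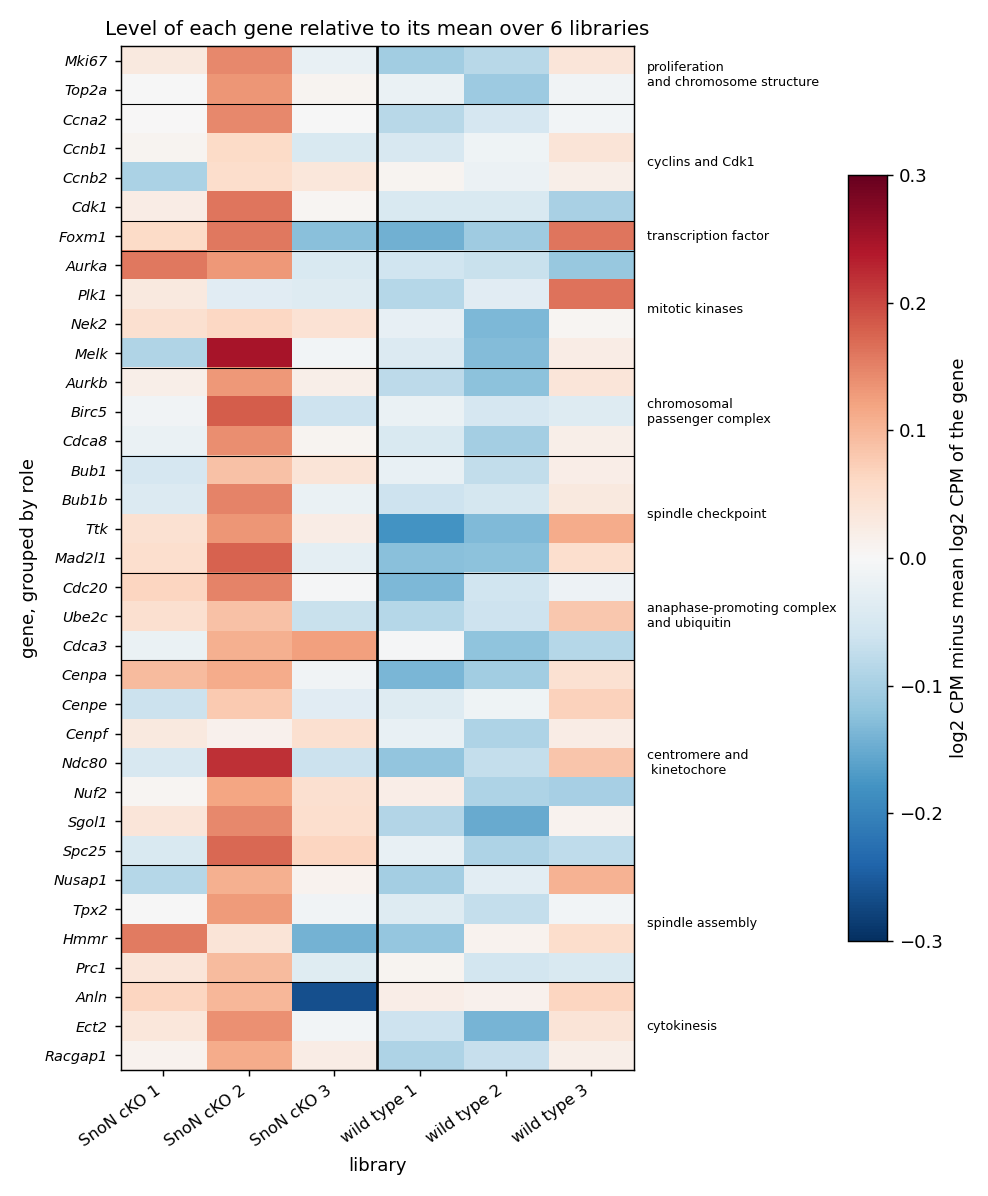
Rows are the 35 genes by role and columns are the libraries, SnoN cKO left of wild type. The colour is the log2 level of a gene relative to its mean over the 6 libraries. The column of SnoN cKO 2 is high for 29 genes, and wild type 3 is the highest wild type column for 28.

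The summed level of the 35 genes was 3821, 4117 and 3765 CPM in SnoN cKO 1, 2 and 3, against 3630, 3584 and 3837 CPM in wild type 1, 2 and 3. The means, 3901 ± 189 CPM in SnoN cKO and 3684 ± 135 CPM in wild type (SD, n = 3 each), differed by 217 CPM, or 5.89%, which is less than the range within SnoN cKO (351 CPM) or within wild type (253 CPM). Without SnoN cKO 2 the difference was 2.97%. By role it ran from 4.12% for Foxm1 and 4.14% for the spindle genes to 7.75% for the ubiquitin genes, and without SnoN cKO 2 from -0.539% for Foxm1 to 5.45% for the ubiquitin genes.

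Markers of granule neuron precursors moved with the 35 genes from library to library. The list held 14 genes: Atoh1, Gli1, Gli2, Ptch1, Mycn, Ccnd1, Ccnd2, Barhl1, Sfrp1, Boc, Zic1, Zic2, Pax6 and Hhip. None of them is among the 35. In a sum of CPM the most abundant genes of the list weigh most. All 14 were tested, none was at 0 in any library, 12 were above 0 and their median log2 fold change was 0.09. Their sum was 4280, 4661 and 4184 CPM in SnoN cKO, against 3963, 4004 and 4411 CPM in wild type, with SnoN cKO 2 and wild type 3 the highest of their groups, as for the mitotic genes. In SnoN cKO 1, 2 and 3 the summed level of the 35 genes was 0.893, 0.883 and 0.900 times that of the precursor genes, against 0.916, 0.895 and 0.870 in wild type 1, 2 and 3. The mean ratios were 0.892 ± 0.00838 in SnoN cKO and 0.894 ± 0.0231 in wild type (SD, n = 3 each), and the groups overlapped. The part of precursor cell number in the mitotic genes' differences was not tested.

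**Figure D4:**
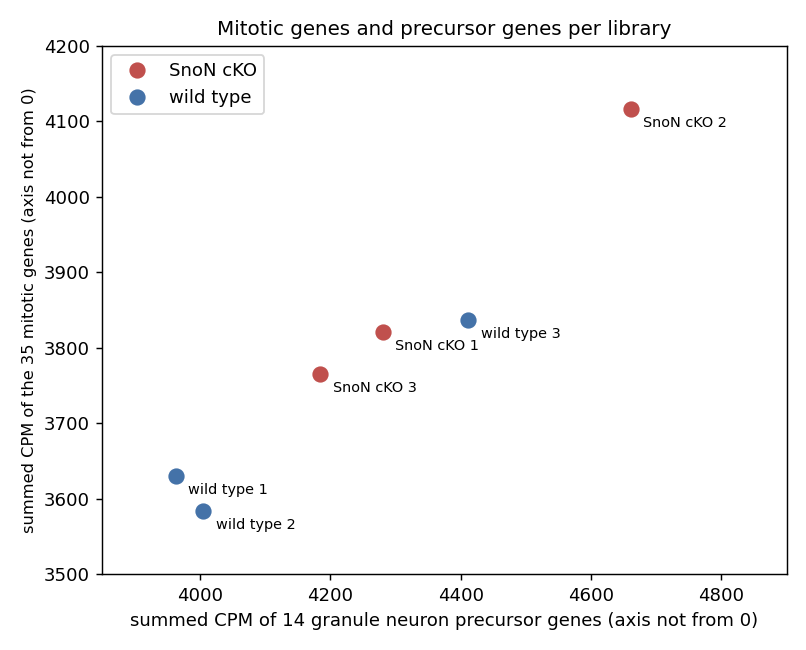
The x axis is the summed CPM of 14 granule neuron precursor genes and the y axis that of the 35 mitotic genes, neither from 0, with 1 point per library. SnoN cKO 2 lies at the upper right and wild type 1 and 2 at the lower left, with wild type 3 among the SnoN cKO libraries.

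Other cell types were also read through marker lists, none of which had a gene past the adjusted threshold. Astrocyte and Bergmann glia markers summed to 4498 to 4836 CPM in SnoN cKO and 4325 to 4378 CPM in wild type, with 8 of 12 above 0. Among these 12, 5 had an unadjusted p under 0.05 in edgeR and were higher in SnoN cKO, and 2 were lower. Over all genes, 7.68% had one in either direction. Interneuron progenitor markers summed to 544.6, 584 and 526 CPM in SnoN cKO 1, 2 and 3, against 509, 517 and 544.6 CPM in wild type 1, 2 and 3, with 6 of 7 above 0. SnoN cKO 2 and wild type 3 were the highest of their groups here too, and in the astrocyte, endothelial and postmitotic granule neuron sums. In the remaining lists they were not both highest. That SnoN cKO 2 and wild type 3 led their groups was therefore not particular to the granule precursor list. The order across the genotypes differed between lists. In the 35 genes and the precursor list, wild type 3 lay between SnoN cKO 2 and SnoN cKO 1, and in the interneuron list it was level with SnoN cKO 1. It lay below every SnoN cKO library in the astrocyte and endothelial sums, and above every one in the postmitotic granule neuron sum. Microglia markers summed to 127 to 151 CPM in SnoN cKO and 124 to 138 CPM in wild type, with 7 of 8 above 0. Endothelial and pericyte markers summed to 735 to 748 CPM in SnoN cKO and 699.7 to 729.8 CPM in wild type, with 6 of 9 above 0. Oligodendrocyte markers summed to 1471 to 1711 CPM in SnoN cKO and 1656 to 1728 CPM in wild type, with 7 of 10 below 0 and SnoN cKO 2 lowest. Postmitotic granule neuron markers summed to 3868 to 4006 CPM in SnoN cKO and 3792 to 4198 CPM in wild type, with 8 of 11 above 0.

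SnoN cKO 2, the library highest in the mitotic genes, also held least of the choroid plexus and brainstem markers. Choroid plexus markers summed to 48.9 CPM in it, against 3430 and 3175 CPM in SnoN cKO 1 and 3, and to 1779 to 3309 CPM in wild type. All 8 were below 0, but the sign of the summed difference rested on SnoN cKO 2: it was -20.0% with that library and 19.1% without it. Of the 17 brainstem and midbrain markers, 8 were at 0 in SnoN cKO 2, 1 in SnoN cKO 1 and 0 in the other 4 libraries. That list summed to 4.33 to 12.55 CPM in SnoN cKO and 11.5 to 20.7 CPM in wild type. Of the 17, 8 passed the filter on low counts, all below 0, with a median log2 fold change of -1.22. In edgeR 4 of these 8 had an unadjusted p under 0.05, against 7.68% of all genes in either direction. The summed difference was -48.4%, and -36.1% without SnoN cKO 2. Meningeal markers, all 8 below 0, summed to 1315 to 1607 CPM in SnoN cKO and 1456 to 1763 CPM in wild type. Erythroid markers had 4 of 7 genes tested, all below 0, and summed to 30.9 to 54.1 CPM in SnoN cKO and 28.2 to 63.8 CPM in wild type. The part of dissection in the mitotic genes' differences was not tested.

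In 113 further genes of kinetochores, condensin and cohesin, the anaphase-promoting complex, mitotic entry and exit, MuvB and the spindle, 92 were above 0 and 21 below, where 49% of all genes were above 0, and the median log2 fold change was 0.07. None was called, and 7 had an unadjusted p under 0.05 in edgeR, all higher in SnoN cKO, where 7.68% of all genes had one in either direction and 3.21% higher in SnoN cKO. Their sum was 9043, 9511 and 8981 CPM in SnoN cKO, against 8804, 8648 and 9053 CPM in wild type, 3.89% higher in SnoN cKO and 2.01% without SnoN cKO 2. SnoN cKO 2 was the highest library in 68 of the 113.

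In the other kinetochore and centromere genes, 28 of 32 were above 0 (median 0.10). Ska3, of the complex that helps Ndc80 follow microtubules, averaged 23.6 ± 1.18 CPM in SnoN cKO and 19.5 ± 0.577 CPM in wild type, a log2 fold change of 0.28 (SE 0.08, edgeR adjusted p = 0.637). Mad1l1, which brings Mad2l1 to unattached kinetochores, averaged 34.2 ± 0.375 CPM in SnoN cKO and 29.7 ± 1.51 CPM in wild type, a log2 fold change of 0.20 (SE 0.06, edgeR adjusted p = 0.637). Neither gene overlapped between the groups. Of the condensin, cohesin and separase genes 17 of 21 were above 0 (median 0.09), with the condensin subunit Smc4 at 0.11 (SE 0.04) and the cohesin protector Cdca5 at 0.18 (SE 0.08). The subunits and regulators of the anaphase-promoting complex had 12 of 15 above 0 (median 0.04), with Anapc10 at 0.25 (SE 0.12) and Anapc4 at 0.09 (SE 0.05).

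Genes of mitotic entry and exit had 11 of 15 above 0 (median 0.05). The kinases with the smallest unadjusted p there lay on opposite sides: Mastl, which keeps mitotic phosphorylations by restraining a phosphatase, was at 0.22 (SE 0.08), and Wee1, which holds Cdk1 inactive, at -0.15 (SE 0.07). Wee1 had 28.04, 28.6 and 26.3 CPM in SnoN cKO, against 31.9, 31.4 and 28.6 CPM in wild type, and SnoN cKO 2 lay just above wild type 3. MuvB and B-Myb genes had 7 of 11 above 0 (median 0.02), with Mybl2 at 0.12 (SE 0.09) and Rbbp4 at 0.07 (SE 0.05). Other spindle and cytokinesis genes had 17 of 19 above 0 (median 0.09), with the mitotic kinase Pbk at 0.19 (SE 0.06) and Cdca2, a phosphatase-binding protein of mitotic chromosomes, at 0.17 (SE 0.08). The adjusted p of these 12 genes ran from 0.637 to 0.726 in edgeR.

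The lean of the 35 genes held in direction however the counts were processed, and its size went with the libraries kept. The median log2 fold change was 0.08 with library totals alone and 0.09 with RLE size factors, DESeq2, limma-voom, labelled sex as a covariate or sex as read from Xist and Y-linked reads. Without SnoN cKO 1 and 2, the libraries whose reads went against the labelled sex, only SnoN cKO 3 was left in its group. There 25 of 35 genes were above 0 and the median was 0.04. Without SnoN cKO 3 and wild type 2, those with most Gm42418 counts, 32 were above 0 and the median was 0.10. These 3 treatments of sex and of Gm42418 were added after the data were seen.

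**Figure D5:**
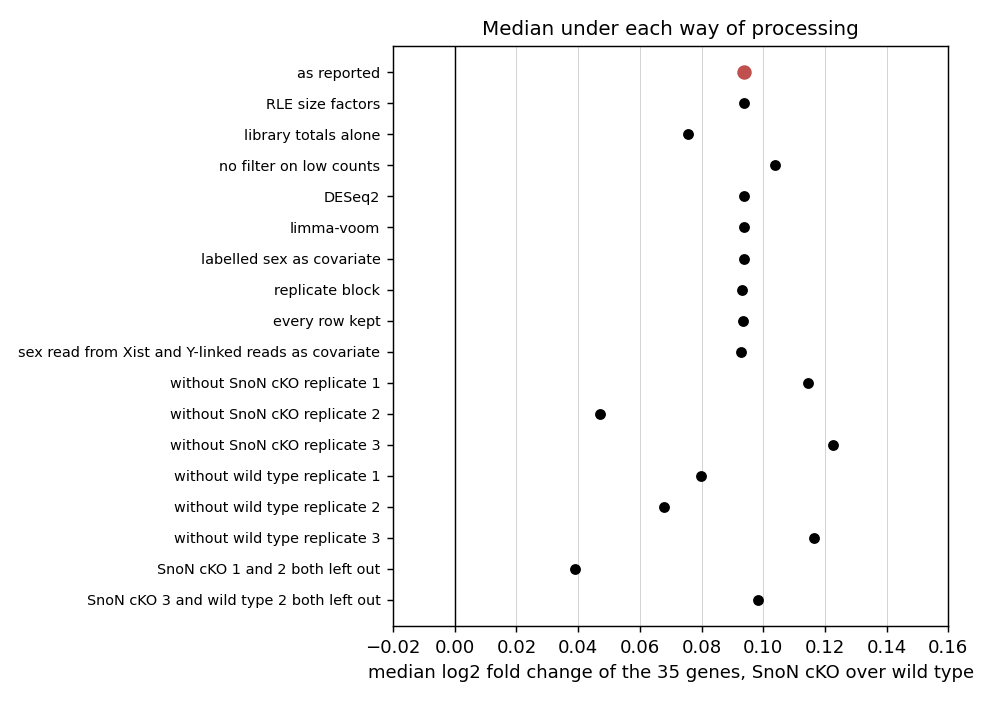
Rows are ways of processing and the x axis is the median log2 fold change of the 35 genes, SnoN cKO over wild type. The median runs from 0.04, without SnoN cKO 1 and 2, to 0.12, without SnoN cKO 3.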

How the data were processed

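RNA-seq of cerebellum was analysed in 6 libraries, grouped by the genotype label. The authors deposited 1 table of raw counts per gene. Tools named in the submitters' processing notes are featureCounts 1.4.5, Subread and STAR 2.0.4b, with the mm9 build. The annotation is not given in the sources used here. Symbols were used, since identifiers and symbols were out of step. In the table, 140 entries repeated a symbol and its counts (0.465% of counts), none of them among the 35 genes, and were kept once.

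Genes were filtered with filterByExpr (minimum count 10), scaled by TMM and fitted with edgeR 4.0.16 (quasi-likelihood, genotype alone, R 4.3.3) over all 15457 genes, with Benjamini-Hochberg adjustment. The common biological coefficient of variation was 9.71%. SE was the log2 fold change over the square root of F, and intervals are 95%. Library totals of 12662952 to 17840662 set the precision. The fit was tested on simulated data. Alternatives used DESeq2 1.42.0, limma-voom (limma 3.58.1), other scalings, sex terms, a replicate block and left-out libraries.

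The genes and lists were chosen with earlier results of these data known. All 35 genes are named, with Skil and, from each further list, the 2 genes with the smallest unadjusted p. Values of every library are given for those of the 35 genes whose groups do not overlap or with an unadjusted p under 0.05, and for Mki67, Top2a, Cdk1, Ccnb1, Foxm1 and Cenpa, and for a few others where a library stood apart. Transcript lengths and exon overlaps came from GENCODE on GRCm38 by symbol, promoter windows from RefSeq on GRCm38.p6. Where a gene had several windows, a motif in any of them counted. Both differ from the build of the counts.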

Additional observations from a re-analysis of the deposited data

How the results depend on the processing

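Across 17 alternatives, 0 of the 35 genes were called, and their lowest adjusted p ran from 0.445 to 0.971. The median log2 fold change stayed above 0, at 0.05 to 0.12 when 1 library was left out. Genes above 0 numbered 25 to 34 then, and 25 without SnoN cKO 1 and 2. Genes whose groups did not overlap numbered 7 with TMM and all libraries and 0 with library totals alone. They numbered 7 to 19 when 1 library was left out. Without SnoN cKO 1 and 2, where SnoN cKO 3 was the only SnoN cKO library, they numbered 18. Without SnoN cKO 3 and wild type 2 they numbered 14. Fewer libraries are easier to separate, and the share of all genes separated in these smaller sets is not given here. The counts from smaller sets therefore cannot be weighed against the 7 from all libraries. Over all genes, 39 were called without a filter, 6 by DESeq2 and 1 with labelled sex as a covariate.

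Of 595 values of the 35 genes over the alternatives, 566 kept their sign and side of the threshold and 29 changed sign, in 13 genes. Ccnb1 was -0.0057 with library totals alone, and Ccnb2 was 0.0075 without a filter. Without SnoN cKO 1 and 2, Ccnb1 was -0.041, Ccnb2 0.030, Birc5 -0.027, Ube2c -0.048, Foxm1 -0.10, Hmmr -0.13, Prc1 -0.0072 and Ndc80 -0.032. Cdca2, which is not among the 35, was -0.00019 there. Without SnoN cKO 3 and wild type 2, Anln was 0.043. Leaving out 1 library gave Ccnb2 -0.029 to 0.041, Cenpe -0.055 to 0.020, Hmmr -0.034 to 0.12, Ccnb1 -0.013 to 0.048, Bub1b -0.0022 to 0.094, Nusap1 -0.028 to 0.080, Birc5 -0.00065 to 0.13, Foxm1 -0.0091 to 0.16, Ndc80 -0.023 to 0.14, Anln -0.13 to 0.058 and Plk1 -0.080 to 0.044. The cause was not tested.

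Samples share replicate numbers, but those with the same number did not deviate together (correlations -0.08, -0.51 and -0.30 over 12297 genes). Deviations were taken from the mean of each genotype's own 3 libraries, which ties the correlations to each other. The highest, 0.63, was between SnoN cKO 3 and wild type 2, the libraries with most Gm42418 counts. Whether the numbers pair animals by litter or batch therefore cannot be told from these correlations. With the replicate block, 0 genes were called and the median of the 35 was 0.09. Of the 35, 3 had an unadjusted p under 0.05 in edgeR, against 786 of all 15457 genes.

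The term for sex as read, and the fits without 2 libraries each, were added after the data were seen. The SE of the 35 genes, 0.04 to 0.09, is not the smallest difference that could be called. Differences well above the SE of a gene were not called either. Cdc20, at 0.14 (SE 0.05), and Skil, at -0.22 (SE 0.04), each had an adjusted p of 0.637 in edgeR.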
